A study of Homo sapiens with 6 samples.

Results

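The cytochrome P450 genes are described here together with the xenobiotic receptors AHR, NR1I2 (PXR) and NR1I3 (CAR) and with POR, the reductase that supplies P450 enzymes with electrons. The members were taken by name, as every gene whose symbol starts with CYP, a family number, a letter and a number, without CYP51A1 and without pseudogenes. This gave 55 P450 genes, and with the 3 receptors and POR 59 of the 20422 genes in the count table. RNA was sequenced from HepG2, an established human liver cancer line that the study lists as a hepatocellular carcinoma line. There were 3 libraries of control cells with the vector (NC) and 3 libraries of cells with a Flag-tagged open reading frame (ORF-Flag). The open reading frame is that of APPLE, a microprotein encoded by the long non-coding RNA ASH1L-AS1, and the comparison asks which transcripts differ when it is overexpressed. The labels speak of transfected plasmids, whereas the methods of the study describe lentiviral stable lines under puromycin selection. Total counts per library were 20081203, 24907524 and 30088457 in NC and 26866148, 17494668 and 27015836 in ORF-Flag. ASH1L-AS1 itself was not analysed here. The labels do not say whether the replicates were separate cultures, so p-values measure only the spread between these 6 samples, which may be technical.

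P450 enzymes are heme proteins of the endoplasmic reticulum and mitochondria that insert an oxygen atom into their substrates. In hepatocytes, members of the low-numbered families oxidize drugs and pollutants and are switched on by receptors that bind these compounds (AHR for the CYP1 genes, NR1I2 and NR1I3 for CYP3A and CYP2B genes), while other members make or break down bile acids, steroid hormones, vitamin D, retinoids and fatty acid mediators. Hepatoma lines such as HepG2 are known for keeping only low levels of many of the drug-metabolizing members.

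The label of the line was checked against markers. All 10 markers of a hepatocyte-like liver cancer line passed the filter on low counts, and their summed level was 25564, 26189 and 26634 CPM in NC and 26618, 26259 and 26264 CPM in ORF-Flag. ALB, which encodes serum albumin, was the most abundant of them per length, at 6714, 7196 and 7204 CPM in NC and 7586, 7434 and 7289 CPM in ORF-Flag, with all ORF-Flag values above all NC values. TTR, another plasma protein gene, was low for a liver marker, at 6.13, 5.93 and 5.65 CPM in NC and 6.03, 6.66 and 5.63 CPM in ORF-Flag. Of the leukocyte markers, PTPRC and CD3E had 0 counts in all 6 libraries, while CD68, a lysosomal protein gene, was at 42.7, 37.3 and 38.02 CPM in NC and 37.9, 37.3 and 40.003 CPM in ORF-Flag and CD14 at 0.396, 0.801 and 0.668 CPM in NC and 0.745, 1.21 and 0.519 CPM in ORF-Flag. ACTA2, a smooth muscle actin gene listed for fibroblasts, was at 70.5, 70.1 and 62.8 CPM in NC and 71.3, 71.7 and 70.97 CPM in ORF-Flag, again with all ORF-Flag values above all NC values, and the other fibroblast markers had at most 3 counts in a library. PECAM1, an endothelial adhesion gene, was at 4.45, 3.84 and 4.78 CPM in NC and 6.03, 5.29 and 5.78 CPM in ORF-Flag, with all ORF-Flag values above all NC values (log2 fold change 0.39, SE 0.13, unadjusted p = 0.00695, edgeR's adjusted p = 0.0958), and the other endothelial markers had at most 13 counts in a library. KRT19, a keratin of bile duct cells that many carcinoma lines also express, was at 529, 490.5 and 478 CPM in NC and 578, 573 and 584 CPM in ORF-Flag and rose in ORF-Flag (log2 fold change 0.21, standard error 0.035, edgeR's quasi-likelihood test with Benjamini-Hochberg adjustment, adjusted p = 0.000636). All ORF-Flag values of KRT19 lay above all NC values, and it was the 1 of 4 bile duct cell markers to pass (25%, against 4.45% of all tested genes), with a summed level of these 4 of 1079, 1045 and 1039.9 CPM in NC and 1129, 1124 and 1139 CPM in ORF-Flag. The others had log2 fold changes of -0.012 (EPCAM, SE 0.031), 0.014 (SOX9, SE 0.054) and 0.37 (KRT7, SE 0.50). FGB, the fibrinogen beta chain gene, was the 1 of 10 hepatocyte markers that passed the test (10%, against 4.45% of all tested genes; 2 with DESeq2), at 344, 361 and 381 CPM in NC and 407, 399.7 and 392 CPM in ORF-Flag with a log2 fold change of 0.14 (SE 0.036, edgeR's adjusted p = 0.0232). That call was lost without NC 1 (adjusted p 0.0624), NC 2 (0.0927), ORF-Flag 1 (0.117), ORF-Flag 2 (0.0814) or ORF-Flag 3 (0.0646), in a range of 0.000465 to 0.117 over all alternatives. At an unadjusted p below 0.05 there were 4 hepatocyte markers, 40% against 18.5% of all tested genes: FGB, ALB (log2 fold change 0.079) and SERPINA1 (0.086, groups apart) on the higher side and APOB (-0.073) on the lower. What part the differences in these markers have in the P450 results was not tested.

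Of the 55 P450 genes, 24 were detected, meaning at least 10 counts in at least 3 libraries. Another 25 had counts below that minimum, never above 10 in a library, and 6 had 0 counts in all 6 libraries: CYP2A7, CYP2A13, CYP4B1, CYP11B1, CYP11B2 and CYP46A1. A count of 0 allows a level of up to 3 counts, which is between 0.100 and 0.172 CPM (counts relative to the size of the library, scaled with TMM) in these libraries, and this limit covers counting error only. All 3 receptors and POR were detected. By role, 7 of 18 genes for drugs and other foreign compounds were detected, 6 of 12 for fatty acids and eicosanoids, 3 of 6 for cholesterol and bile acids, 3 of 7 for vitamin D and retinoids, 2 of 6 for steroid hormones and 3 of 6 of other or poorly known function. The same 24 genes and the 4 others made up the 28 members that passed the filter of edgeR and could be tested.

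**Figure D1:**
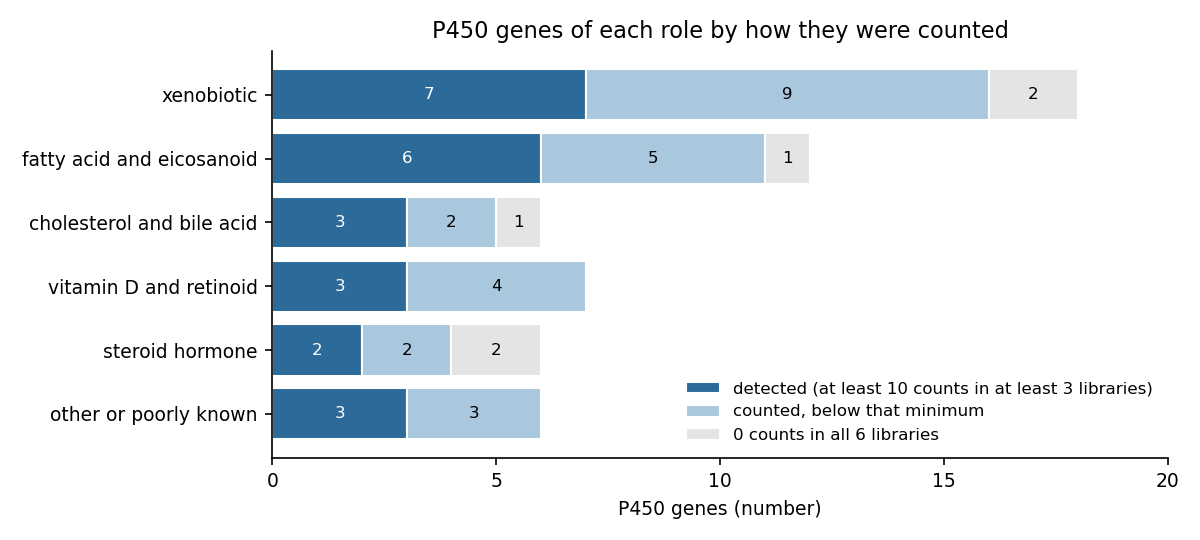
Number of P450 genes (horizontal axis) in each role, split into detected genes, genes with counts below the minimum, and genes with 0 counts in all 6 libraries. The largest group, genes for foreign compounds, had 7 detected genes of 18.

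Position on the chromosomes was not used to choose the genes. In the annotation of build GRCh38, 33 of the 55 P450 genes stand in 8 runs of neighbours with at most 1000000 bases between them, and 10 of these 33 were detected, against 14 of the 22 genes outside such runs. The run on chromosome 1 with CYP4B1, CYP4A11, CYP4X1, CYP4Z1 and CYP4A22 had 0 of 5 detected. In the CYP4F run on chromosome 19, 4 of 6 genes were detected. The CYP3A run on chromosome 7 held CYP3A5 and CYP3A43 as detected genes and CYP3A4 and CYP3A7 below the minimum.

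Levels between genes are compared as FPKM, the CPM value per kilobase of exon. CYP27A1, the mitochondrial sterol 27-hydroxylase, had the highest level of the P450 genes, 51.4 FPKM over the 6 libraries, and CYP1A1, the inducible oxidase of polycyclic aromatic compounds, came next with 26.8 FPKM. Together they held between 57.9 and 59.5% of the summed P450 level per length in each library. After these came CYP2S1 (8.62 FPKM), CYP20A1 (7.79), CYP2W1 (6.196), CYP4F11 (5.14), CYP4F2 (3.21), CYP3A5 (3.09), CYP39A1 (2.85) and CYP4F12 (2.55). The spreads (mean ± 1 SD over 6 libraries) of CYP2S1 and CYP20A1 overlapped, as did those of each neighbouring pair from CYP4F2 through CYP3A5 and CYP39A1 to CYP4F12, so the order within these is not resolved. The other 14 detected P450 genes lay between 0.164 FPKM (CYP2E1) and 2.32 FPKM (CYP19A1). At the lower end, the spreads of each neighbouring pair from CYP3A43 through CYP7A1, CYP21A2 and CYP2C8 to CYP2E1 overlapped, so their order is not resolved. The low FPKM of CYP2E1 also rests on its exon length of 9621 bases. In CPM, its means of 1.44 in NC and 1.72 in ORF-Flag were above those of CYP2C8 (0.526 and 0.364). The spreads of CYP4F12 and CYP19A1 overlapped as well, so their order is not resolved either. With the longest transcript in place of all exons of a gene, the order kept CYP27A1 and CYP1A1 at the top and moved CYP19A1 up to the eighth place, before CYP4F12, CYP4F2 and CYP39A1. The summed P450 level was 457 ± 8.39 CPM in NC and 459.8 ± 9.29 CPM in ORF-Flag (mean ± SD, n = 3 each), a difference smaller than either SD.

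**Figure D2:**
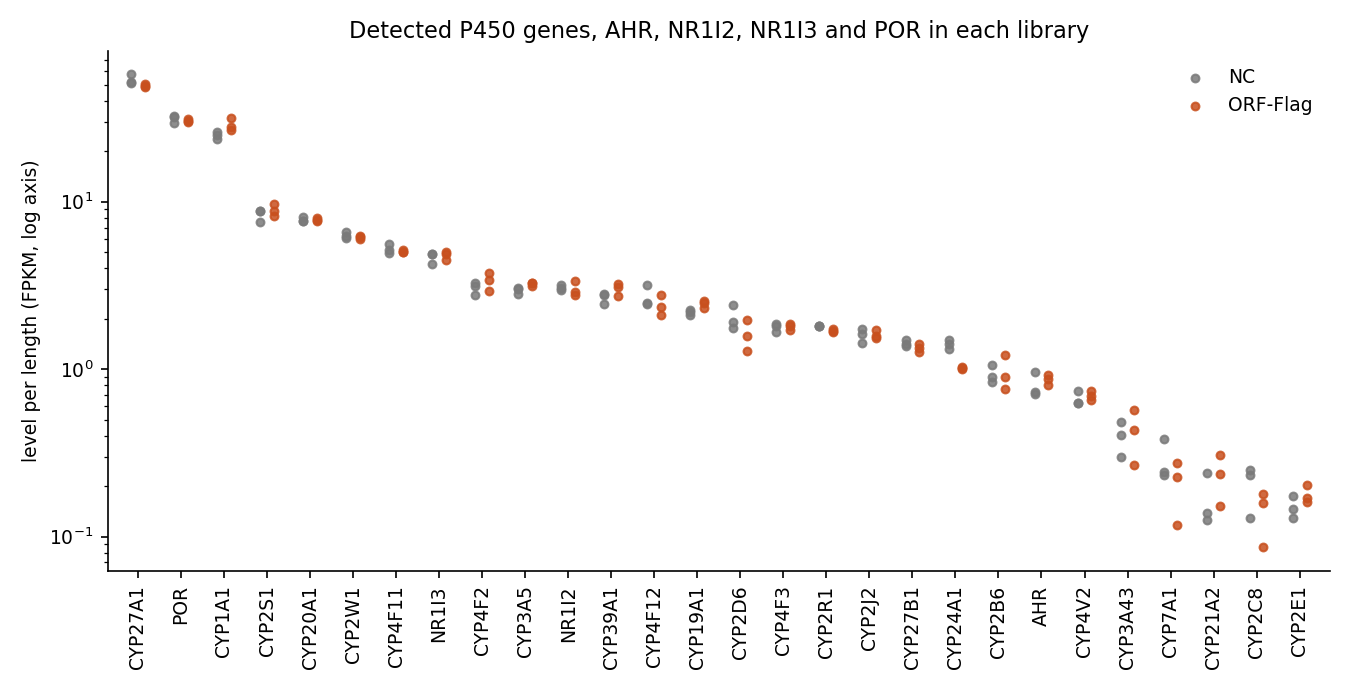
Level per length (FPKM, log axis) of the 24 detected P450 genes, the 3 receptors and POR, with 1 point per library, NC in grey and ORF-Flag in orange. The mean levels run from CYP27A1 down to CYP2E1, with the order of the lowest genes not resolved, and the groups lie close together for nearly every gene.

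Between the groups, most of the tested P450 genes differed by small amounts. CYP1A1 was higher in ORF-Flag by 14.3% and CYP24A1, which inactivates vitamin D, was lower by 27.8%, and these were the only 2 of the 28 tested members with an adjusted p below 0.05 (edgeR's quasi-likelihood test with Benjamini-Hochberg adjustment over all 12386 tested genes). With DESeq2 there was 1 such member, and with 1 library left out there were 0 without NC 1, ORF-Flag 1 or ORF-Flag 2, 1 without NC 2 or ORF-Flag 3 and 3 without NC 3. The 2 members are 7.14% of the members, against 4.45% of all tested genes. In single directions the share of all tested genes was 2.47% higher and 1.98% lower in ORF-Flag, with 1 member each. At an unadjusted p below 0.05 there were 5 members, 17.9%, against 18.5% of all tested genes; CYP27A1, CYP19A1 and CYP2D6 were the additional ones. That count was 3 with DESeq2, without NC 1 and without ORF-Flag 1. The libraries of the 2 groups did not overlap for 6 of the 28 tested members (CYP1A1, CYP24A1, CYP27A1, CYP19A1, CYP3A5 and CYP2R1), 21.4%, against 22.4% of all tested genes. These shares were near the background, and nothing about the family is read from them. The median log2 fold change of the 28 members was 0.012, beside -0.0012 for all tested genes, and it was below 0 with limma-voom (-0.0036), without NC 1 (-0.018) and without ORF-Flag 3 (-0.017). The median size regardless of sign was 0.10, beside 0.073, while the median standard error was 0.10, beside 0.067. The larger size thus came with a larger error, and nothing about the family is read from it. Fewer cells that express a gene and less of its RNA per cell cannot be told apart in these bulk samples.

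**Figure D3:**
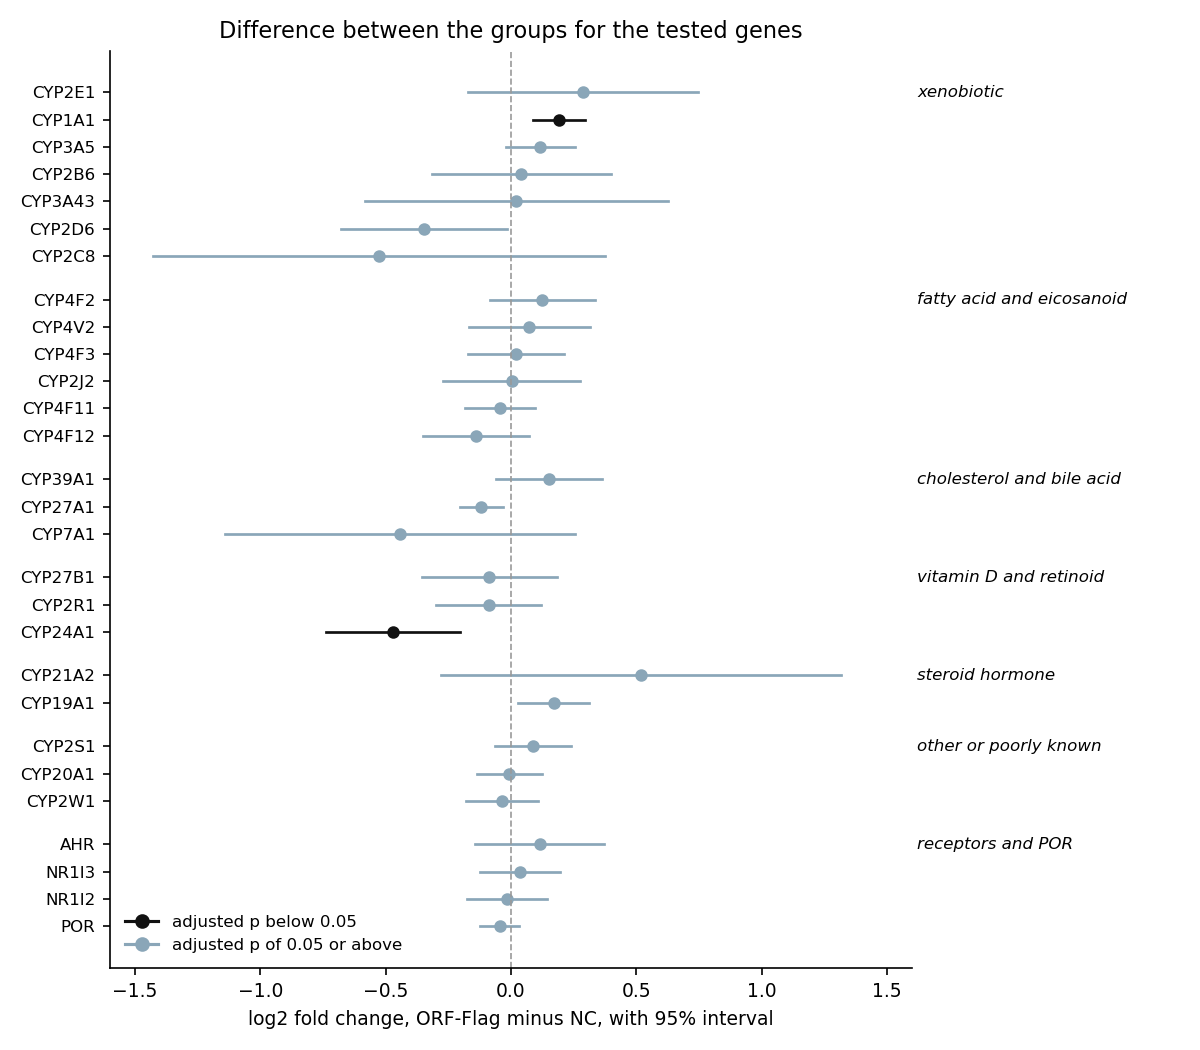
Log2 fold change (ORF-Flag minus NC, horizontal axis) with its 95% interval for the 28 tested members, grouped by role, with black for an adjusted p below 0.05. CYP1A1 on the higher and CYP24A1 on the lower side are the black points, and the widest intervals belong to the genes with the fewest counts, such as CYP2C8, CYP7A1 and CYP21A2.

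Among the genes for foreign compounds, CYP1A1 (ENSG00000140465.15; GRCh38, chr15:74719542-74725610, minus strand) oxidizes polycyclic aromatic hydrocarbons. It stood at 81.5, 89.5 and 86.4 CPM in the NC libraries and 96.2, 108 and 91.4 CPM in the ORF-Flag libraries. Every ORF-Flag library lay above every NC library, with ORF-Flag 2 the highest and the margin between NC 2 and ORF-Flag 3 narrow. The log2 fold change was 0.19 (SE 0.050, 95% interval 0.089 to 0.30, edgeR's adjusted p = 0.0272), on means of 24.98 ± 1.17 FPKM in NC and 28.7 ± 2.55 FPKM in ORF-Flag (mean ± SD, n = 3 each). The call was lost without NC 1 (log2 fold change 0.159, adjusted p 0.0619), without ORF-Flag 1 (0.211, adjusted p 0.0588) and without ORF-Flag 2 (0.126, adjusted p 0.198), within a range of 0.000522 to 0.198 over all alternatives, and the sign was positive in all 14. Its neighbour CYP1A2, which oxidizes caffeine, had only 4, 6 and 8 counts in the NC libraries and 3, 6 and 5 in the ORF-Flag libraries, with the groups overlapping. CYP1B1, another AHR-driven member, had at most 1 count per library. CYP1A1 shares 1.05% of its 31-base words with other genes, so few of its reads could stem from a related gene.

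The DNA just before the starts of CYP1A1 and CYP1A2 is shown because the neighbours differ so much in level. The sequences are RefSeq's (build GRCh38.p14), the 250 bases before the start on the gene's own strand, and 42 of the 59 members have such an entry in the table used. RefSeq's start can differ from that of the annotation used for the counts. Capitals mark GCGTG, searched on both strands, the core of the DNA element that AHR binds with its partner ARNT; CYP1A1 is at chr15:74725529-74725778, minus strand, and CYP1A2 at chr15:74748595-74748844, plus strand.
CYP1A1: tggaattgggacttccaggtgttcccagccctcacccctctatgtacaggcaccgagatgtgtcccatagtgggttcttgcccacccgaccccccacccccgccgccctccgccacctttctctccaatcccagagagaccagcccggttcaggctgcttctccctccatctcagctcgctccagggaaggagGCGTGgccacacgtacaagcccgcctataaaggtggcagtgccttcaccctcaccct
CYP1A2: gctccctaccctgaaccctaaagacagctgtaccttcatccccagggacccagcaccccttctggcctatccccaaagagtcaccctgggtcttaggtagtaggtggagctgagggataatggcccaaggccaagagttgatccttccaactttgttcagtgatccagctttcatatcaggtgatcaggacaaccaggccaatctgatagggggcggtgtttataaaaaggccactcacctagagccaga
The letters occur 1 time in the CYP1A1 window, starting 57 bases before the gene's start, and 0 times in the CYP1A2 window, with no overlap with the TATAAA of CYP1A1 at 32 bases. CYP1A2 holds TATAAA as well, at 29 bases on the gene's strand and at 31 on the other, and 10.7% of all windows hold these letters on either strand. Of all 35116 windows of this length in the table, 32.2% hold GCGTG on either strand, so a match is common. Among P450 genes with an entry, 4 of 19 detected and 6 of 20 not detected genes hold GCGTG. The 2 windows were 45.3% identical in a global alignment. A match here describes letters and not a bound site. DNA further from the starts was not searched, and what sets the levels of these neighbours was not tested.

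AHR, the ligand-activated receptor of the CYP1 genes, stood at 5.94, 7.77 and 5.75 CPM in the NC libraries and 7.04, 6.49 and 7.41 CPM in the ORF-Flag libraries. The groups overlapped, with NC 2 the highest of all 6. The difference was small, with a log2 fold change of 0.11 (SE 0.13, edgeR's adjusted p = 0.698; from 0.023 to 0.27 with 1 library left out), and its level per length was 0.833 FPKM, the lowest of the 3 receptors. AHR shares 36.8% of its 31-base words, mostly with an overlapping unnamed gene model, so its count is uncertain where reads were shared. Of 11 listed genes of the AHR complex and its outputs, all were tested and 0 passed at an adjusted p below 0.05 with edgeR, DESeq2, limma-trend and limma-voom, while 2 (18.2%) had an unadjusted p below 0.05 with edgeR, against 4.45% and 18.5% of all tested genes. These were the output genes UGT1A6, a glucuronosyltransferase (31.8, 36.5 and 33.7 CPM in NC and 38.4, 35.8 and 37.7 CPM in ORF-Flag, log2 fold change 0.14, edgeR's adjusted p = 0.209), and ALDH3A1, an aldehyde dehydrogenase (75.1, 75.2 and 68.5 CPM in NC and 80.7, 80.3 and 74.04 CPM in ORF-Flag, log2 fold change 0.10, edgeR's adjusted p = 0.233). The groups overlapped for both. TIPARP, another gene that AHR switches on, had a log2 fold change of 0.064 (SE 0.068), and AHRR, the repressor of AHR, one of -0.26 (SE 0.22). HSP90AB1, a chaperone that holds AHR in the cytosol, was the most abundant of the list per length, at 4721, 4799 and 4796 CPM in NC and 4571, 4631 and 4554 CPM in ORF-Flag. All its ORF-Flag values lay below all NC values (log2 fold change -0.058, SE 0.031, edgeR's adjusted p = 0.322). It was the 1 gene of the list whose groups did not overlap (9.09%, against 22.4% of all tested genes). The list's median log2 fold change was -0.012.

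The CYP3A genes oxidize a large share of common drugs and steroids. CYP3A5 carried nearly all of the CYP3A counts, with 18.99, 20.4 and 20.5 CPM in the NC libraries and 21.2, 22.1 and 21.96 CPM in the ORF-Flag libraries. The groups did not overlap, but the gap between NC 3 and ORF-Flag 1 was small. Its log2 fold change of 0.12 (SE 0.066, 95% interval -0.019 to 0.25) did not pass the test (edgeR's adjusted p = 0.358). CYP3A4, the main CYP3A enzyme of adult liver, had 5, 3 and 3 counts in the NC libraries and 7, 5 and 8 in the ORF-Flag libraries. CYP3A7, the fetal form, had 5, 2 and 3 counts in the NC libraries and 3, 5 and 10 in the ORF-Flag libraries, and 55.5% of its 31-base words are shared, nearly all with a readthrough gene of CYP3A7 that had at most 1 count. In level per length, CYP3A5 was at 2.96 ± 0.126 FPKM in NC and 3.22 ± 0.0765 FPKM in ORF-Flag (mean ± SD, n = 3 each), against 0.0496 ± 0.0254 FPKM in NC and 0.0896 ± 0.00589 FPKM in ORF-Flag (mean ± SD, n = 3 each) for CYP3A4. CYP3A43, a little-known member, was detected at 0.791, 1.28 and 1.07 CPM in NC and 0.708, 1.49 and 1.15 CPM in ORF-Flag, with overlapping groups and a log2 fold change of 0.022 (SE 0.29).

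The windows before the starts of CYP3A5, CYP3A4 and CYP3A7 are set side by side because these neighbours also differ in level. Capitals mark TGAACT followed after any 6 bases by AGGTCA, searched on both strands (TGACCT, any 6 bases, AGTTCA on the other), the everted repeat to which NR1I2 with its partner RXR is known to bind. All are on the minus strand of build GRCh38.p14 in RefSeq's table, CYP3A5 at chr7:99679997-99680246, CYP3A4 at chr7:99784185-99784434 and CYP3A7 at chr7:99735197-99735446.
CYP3A5: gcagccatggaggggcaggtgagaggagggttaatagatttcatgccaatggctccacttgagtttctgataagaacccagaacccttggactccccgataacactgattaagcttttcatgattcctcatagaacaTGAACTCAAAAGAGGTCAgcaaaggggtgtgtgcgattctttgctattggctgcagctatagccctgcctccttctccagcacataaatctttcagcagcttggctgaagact
CYP3A4: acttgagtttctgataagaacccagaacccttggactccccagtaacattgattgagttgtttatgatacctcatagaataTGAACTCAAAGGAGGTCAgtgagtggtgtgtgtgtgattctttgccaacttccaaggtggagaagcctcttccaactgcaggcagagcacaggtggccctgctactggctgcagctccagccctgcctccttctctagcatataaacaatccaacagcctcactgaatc
CYP3A7: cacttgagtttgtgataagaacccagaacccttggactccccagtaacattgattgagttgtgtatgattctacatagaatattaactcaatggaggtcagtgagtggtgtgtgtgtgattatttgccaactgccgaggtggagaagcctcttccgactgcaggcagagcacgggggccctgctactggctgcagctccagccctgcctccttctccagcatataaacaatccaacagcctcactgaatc
The motif is in 3 of all 35116 windows, or 0.00854%, and CYP3A5 and CYP3A4 are 2 of these 3. It starts 113 bases before the start of CYP3A5 and 169 bases before that of CYP3A4. Against the 18-base stretch of CYP3A4, with positions counted from its first base, the closest stretch of CYP3A5 carries G11A, which lies in the free bases between the parts of the motif. That of CYP3A7 carries A10T, also in the free bases, and G2T, which lies in TGAACT and makes it no match. The windows of CYP3A4 and CYP3A7 were 94.0% identical and those of CYP3A4 and CYP3A5 52.6%. The low CYP3A4 and the higher CYP3A5 thus both hold the letters, and nothing about the receptor is drawn from them.

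NR1I2, the pregnane X receptor, stood at 17.01, 16.4 and 15.9 CPM in the NC libraries and 15.5, 14.99 and 17.96 CPM in the ORF-Flag libraries. The ranges overlapped, with ORF-Flag 3 highest and ORF-Flag 2 lowest. Its log2 fold change was -0.016 (SE 0.078, edgeR's adjusted p = 0.944). NR1I3, the constitutive androstane receptor, stood at 14.05, 16.2 and 16.004 CPM in the NC libraries and 16.1, 14.8 and 16.5 CPM in the ORF-Flag libraries. NC 1 was lowest and ORF-Flag 3 highest, with the groups interleaved. The log2 fold change of NR1I3 was 0.036 (SE 0.078, edgeR's adjusted p = 0.862). In level per length the receptors ran from NR1I3 (4.72 FPKM) through NR1I2 (3.03 FPKM) to AHR, and NR1I3 overlaps TOMM40L, with 16.1% of its 31-base words shared.

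The remaining genes for foreign compounds belong to the CYP2 family. CYP2D6, which oxidizes many antidepressants and opioids, stood at 5.89, 4.64 and 4.31 CPM in the NC libraries and 3.84, 4.77 and 3.15 CPM in the ORF-Flag libraries. Most ORF-Flag values were low, but ORF-Flag 2 reached above 2 NC libraries, so the groups overlapped. For CYP2D6 the log2 fold change was -0.35 (SE 0.16, 95% interval -0.68 to -0.016), with an unadjusted p of 0.0405 and edgeR's adjusted p of 0.243, and it was -0.217 without NC 1 and -0.205 without ORF-Flag 3. CYP2D6 shares 47.01% of its 31-base words, mostly with the pseudogene CYP2D7, which stood at 1.14, 1.201 and 0.768 CPM in NC and 0.782, 1.32 and 0.889 CPM in ORF-Flag, and how reads of the pair were split is not given in the sources used here.

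CYP2B6, a target of NR1I3 that oxidizes bupropion, stood at 3.36, 4.004 and 3.17 CPM in the NC libraries and 4.54, 3.39 and 2.85 CPM in the ORF-Flag libraries. ORF-Flag 1 was highest and ORF-Flag 3 lowest, so the ORF-Flag values enclosed all NC values. The log2 fold change was 0.042 (SE 0.17), and 26.8% of its 31-base words are shared, mostly with the pseudogene CYP2B7P. CYP2C8, which oxidizes paclitaxel, had 13, 15 and 10 counts in the NC libraries and 11, 8 and 6 in the ORF-Flag libraries. Counts were too few for a narrow comparison, and the log2 fold change of -0.53 had a 95% interval of -1.43 to 0.38. CYP2E1, the ethanol-inducible member, stood at 1.68, 1.401 and 1.24 CPM in the NC libraries and 1.64, 1.55 and 1.96 CPM in the ORF-Flag libraries. The groups overlapped (log2 fold change 0.29, SE 0.22), and 22.8% of its 31-base words are shared, mostly with the neighbouring gene SYCE1. CYP2A6, the nicotine oxidase, had counts in 2 libraries only, 1 in ORF-Flag 1 and 4 in ORF-Flag 2. CYP2F1, a lung member, had at most 6 counts in a library.

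**Figure D4:**
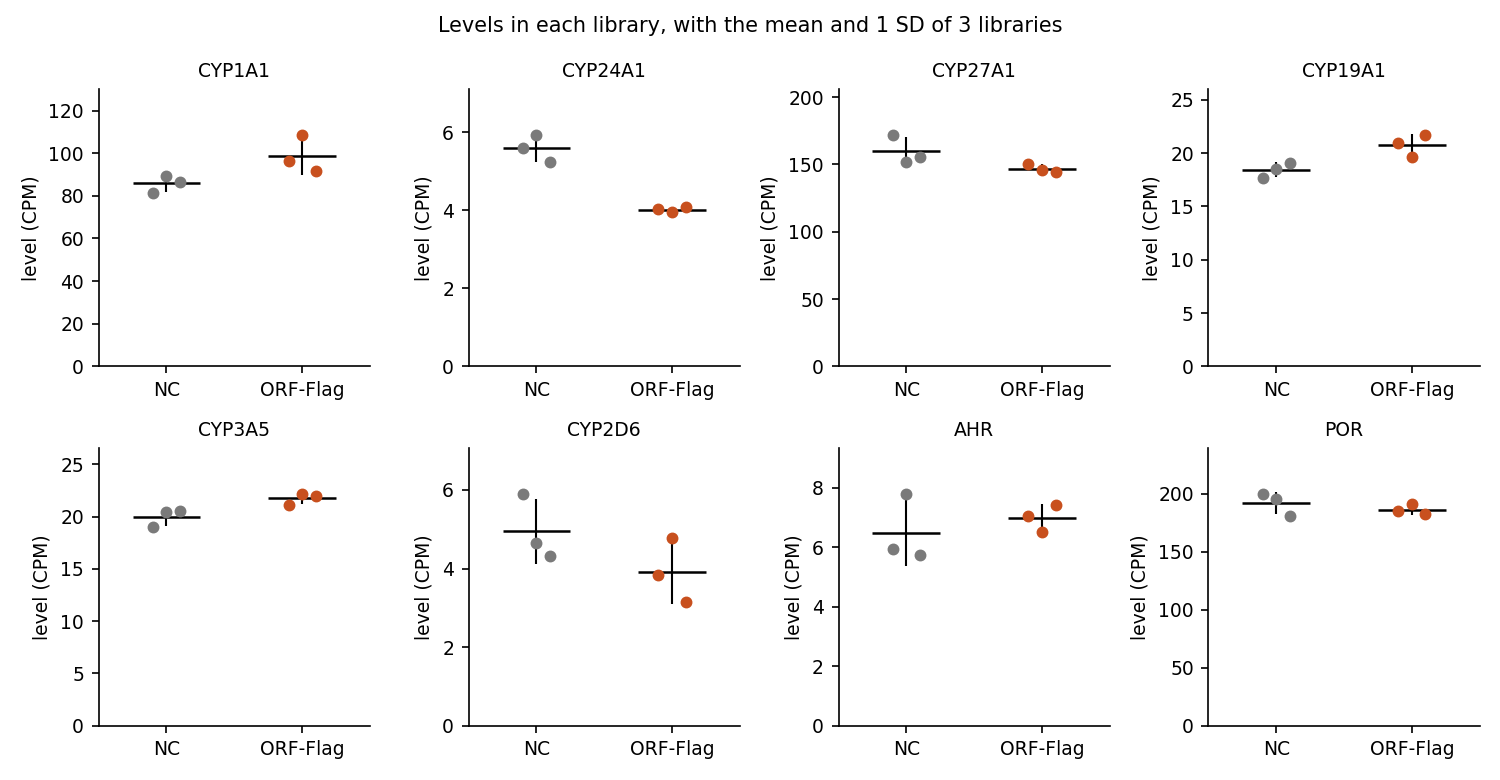
Level (CPM, vertical axis from 0) of 8 genes in each library, with points for libraries, a horizontal line for the mean and a vertical line for 1 SD of 3 libraries. CYP1A1 and CYP24A1 passed the test; the groups also stand apart for CYP27A1, CYP19A1 and CYP3A5 and overlap for CYP2D6, AHR and POR.

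Among the genes of cholesterol and bile acids, CYP27A1 oxidizes the side chain of cholesterol. It stood at 172, 152 and 155 CPM in the NC libraries and 150.5, 146 and 144 CPM in the ORF-Flag libraries. All ORF-Flag values were below all NC values, though NC 1 was well above the rest and the other values were close together. Its log2 fold change was -0.12 (SE 0.041, 95% interval -0.20 to -0.033), with an unadjusted p of 0.00825 and edgeR's adjusted p of 0.105, which did not pass. An adjusted p below 0.05 was reached without the filter on low counts (0.0371) and without NC 3 (0.0313). It was also reached with the replicate number as a block (0.0388), in a range of 0.0313 to 0.351 over the alternatives. Without NC 1 the log2 fold change was -0.066. Means per length were 53.6 ± 3.51 FPKM in NC and 49.3 ± 1.06 FPKM in ORF-Flag (mean ± SD, n = 3 each).

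CYP39A1, an oxysterol 7-alpha-hydroxylase, stood at 7.62, 8.77 and 8.65 CPM in the NC libraries and 8.49, 9.996 and 9.59 CPM in the ORF-Flag libraries. The ORF-Flag values tended to the higher side but overlapped with NC (log2 fold change 0.15, SE 0.10, edgeR's adjusted p = 0.463). CYP7A1, the rate-limiting enzyme of classic bile acid synthesis, had 14, 18 and 34 counts in the NC libraries and 18, 6 and 22 in the ORF-Flag libraries. Its groups overlapped, and the log2 fold change of -0.44 had a 95% interval of -1.14 to 0.26. Neither the size nor the direction of a difference in CYP7A1 was resolved at this depth. CYP8B1, the sterol 12-alpha-hydroxylase, stayed under the minimum with 2, 7 and 6 counts in the NC libraries and 3, 9 and 10 in the ORF-Flag libraries. CYP7B1 had counts in ORF-Flag 1 alone (3), and CYP46A1, the cholesterol 24-hydroxylase of brain, had 0 in all 6.

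NR0B2 (SHP), the nuclear receptor that represses CYP7A1 in the bile acid feedback loop, stood at 79.6, 80.6 and 76.4 CPM in the NC libraries and 97.95, 92.03 and 92.1 CPM in the ORF-Flag libraries. All ORF-Flag libraries were above all NC libraries. Its log2 fold change was 0.26 (SE 0.041, edgeR's adjusted p = 0.000491), and the call held in all 14 alternatives. NR0B2 was the 1 gene of the list of nuclear receptors and liver factors to pass the test, among 15 tested of 17 (2 passed with limma-trend), which is 6.67% against 4.45% of all tested genes, with 3 (20%, against 18.5%) at an unadjusted p below 0.05, and it was also the most abundant of the list per length. CEBPA, a liver transcription factor, stood at 31.95, 26.7 and 23.2 CPM in the NC libraries and 20.3, 20.2 and 24.7 CPM in the ORF-Flag libraries. Here NC 1 was highest and ORF-Flag 3 lay between NC 2 and NC 3, and the log2 fold change of -0.31 (SE 0.092) missed the threshold with edgeR (adjusted p = 0.0521). NR1H4 (FXR), the bile acid receptor, had a log2 fold change of 0.026 (SE 0.045) and HNF4A, a master factor of hepatocytes, one of -0.053 (SE 0.038). The list's median log2 fold change was -0.024.

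Among the genes of vitamin D and retinoids, CYP24A1 (ENSG00000019186.10; GRCh38, chr20:54153449-54173973, minus strand) breaks down active vitamin D. It stood at 5.59, 5.93 and 5.25 CPM in the NC libraries and 4.02, 3.96 and 4.07 CPM in the ORF-Flag libraries. The ORF-Flag libraries lay close together and below all NC libraries. The log2 fold change was -0.47 (SE 0.13, 95% interval -0.74 to -0.20, edgeR's adjusted p = 0.0374), on means of 1.41 ± 0.0856 FPKM in NC and 1.01 ± 0.0139 FPKM in ORF-Flag (mean ± SD, n = 3 each). The level rested on 69 to 157 counts per library. With DESeq2 the adjusted p was 0.114, and with edgeR the call was lost without NC 1 (0.0708), NC 2 (0.161), ORF-Flag 1 (0.111), ORF-Flag 2 (0.111) or ORF-Flag 3 (0.134) and of the 6 left-out libraries it was kept only without NC 3 (0.0265), in a range of 0.0242 to 0.161 over all alternatives. The log2 fold change itself ran from -0.52 to -0.42 over the 14 alternatives. None of its 31-base words occurs in another gene.

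CYP27B1, which makes active vitamin D, had 95, 121 and 153 counts in the NC libraries and 117, 80 and 132 in the ORF-Flag libraries, with overlapping groups (log2 fold change -0.086, SE 0.13, edgeR's adjusted p = 0.793). CYP2R1, the vitamin D 25-hydroxylase, was at 8.21, 8.17 and 8.22 CPM in the NC libraries and 7.67, 7.53 and 7.89 CPM in the ORF-Flag libraries. Its NC values were nearly equal and all above the ORF-Flag values, but the log2 fold change of -0.089 was smaller than its standard error of 0.10 (edgeR's adjusted p = 0.7096). VDR, the vitamin D receptor that switches on CYP24A1, was under the minimum, with 5, 1 and 4 counts in the NC libraries and 5, 0 and 3 in the ORF-Flag libraries. The retinoic acid hydroxylases CYP26A1, CYP26B1 and CYP26C1 were all under the minimum too, CYP26B1 with 4, 8 and 3 counts in the NC libraries and 5, 1 and 6 in the ORF-Flag libraries, and CYP27C1 had 1 count in 1 library.

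Among the genes of steroid hormones, CYP19A1 (aromatase) converts androgens to estrogens. It stood at 17.7, 18.5 and 19.1 CPM in the NC libraries and 20.9, 19.6 and 21.7 CPM in the ORF-Flag libraries. All ORF-Flag values were above all NC values, by a small margin between NC 3 and ORF-Flag 2. Aromatase had a log2 fold change of 0.17 (SE 0.069, 95% interval 0.029 to 0.31), with an unadjusted p of 0.0202 and edgeR's adjusted p of 0.171. CYP21A2, the adrenal 21-hydroxylase, passed the minimum with 14, 10 and 11 counts in the NC libraries and 24, 12 and 12 in the ORF-Flag libraries. The groups overlapped, the 95% interval of its log2 fold change was -0.28 to 1.32, and 65.7% of its 31-base words are shared, mostly with its pseudogene, so its count is uncertain. CYP17A1, which makes androgens, had 5, 5 and 9 counts in the NC libraries and 5, 3 and 4 in the ORF-Flag libraries, and 31.4% of its 31-base words are shared, mostly with the overlapping WBP1L. CYP11A1, the first enzyme of steroid synthesis, had at most 4 counts in a library, and CYP11B1 and CYP11B2, which make cortisol and aldosterone, had 0 in all 6.

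The genes of fatty acids and eicosanoids had 6 detected members. Of these, 0 passed with edgeR, DESeq2, limma-trend or limma-voom and 0 had an unadjusted p below 0.05 with edgeR, against 4.45% and 18.5% of all tested genes with edgeR. CYP4F11, a fatty acid omega-hydroxylase, was the most abundant, at 20.8, 22.4 and 19.8 CPM in the NC libraries and 20.1, 20.1 and 20.9 CPM in the ORF-Flag libraries. Its groups overlapped, with NC 2 highest (log2 fold change -0.044, SE 0.068, edgeR's adjusted p = 0.797). CYP4F2, which also breaks down vitamin K, was at 10.3, 8.73 and 9.79 CPM in the NC libraries and 9.16, 11.7 and 10.7 CPM in the ORF-Flag libraries. ORF-Flag 2 was highest and NC 2 lowest, with overlap (log2 fold change 0.13, SE 0.10, edgeR's adjusted p = 0.566). CYP4F12 was at 16.9, 13.3 and 13.1 CPM in the NC libraries and 12.6, 11.2 and 14.9 CPM in the ORF-Flag libraries. NC 1 was highest and ORF-Flag 2 lowest, again with overlap (log2 fold change -0.14, SE 0.10, edgeR's adjusted p = 0.5104), and the value was -0.020 without NC 1, -0.063 without ORF-Flag 2 and -0.26 without ORF-Flag 3. CYP4F3, which inactivates leukotriene B4, had a log2 fold change of 0.020 (SE 0.092). CYP4F2 shares 35.3% and CYP4F3 23.6% of their 31-base words, mostly with each other, so part of their counts may be exchanged.

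CYP2J2, which makes epoxides of arachidonic acid, had 87, 121 and 156 counts in the NC libraries and 126, 80 and 139 in the ORF-Flag libraries and a log2 fold change of 0.0035 (SE 0.13). CYP4V2, a fatty acid hydroxylase known from a retinal dystrophy, had a log2 fold change of 0.074 (SE 0.12). CYP2U1 lay just under the minimum with 5 to 9 counts in a library, while CYP4A11, CYP4A22, CYP4F8 and CYP4F22 each had 1 count in 1 library. EPHX2, the soluble hydrolase that removes the epoxides made by CYP2J2, stood at 36.9, 37.03 and 36.02 CPM in the NC libraries and 30.1, 28.2 and 28.2 CPM in the ORF-Flag libraries. It fell in ORF-Flag with all 3 libraries below all NC libraries (log2 fold change -0.34, SE 0.056, edgeR's adjusted p = 0.000522), and this call held in all 14 alternatives.

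The members of other or poorly known function included 3 of the most abundant P450 genes, and 0 of the 3 passed with edgeR, DESeq2, limma-trend or limma-voom or had an unadjusted p below 0.05 with edgeR (4.45% and 18.5% of all tested genes with edgeR). CYP2S1, which acts on retinoids and lipid mediators, was at 25.2, 25.3 and 21.6 CPM in the NC libraries and 25.1, 27.9 and 23.7 CPM in the ORF-Flag libraries. NC 3 was lowest and ORF-Flag 2 highest, with overlap (log2 fold change 0.087, SE 0.074, edgeR's adjusted p = 0.587). CYP20A1, an orphan member with no well-established substrate, was at 23.6, 23.5 and 24.8 CPM in the NC libraries and 23.5, 24.5 and 23.9 CPM in the ORF-Flag libraries. Its values were nearly equal in all 6 libraries (log2 fold change -0.0058, SE 0.063, 95% interval -0.14 to 0.12). CYP2W1, known from fetal colon and from tumours, was at 18.2, 16.8 and 17.2 CPM in the NC libraries and 17.3, 16.5 and 16.96 CPM in the ORF-Flag libraries. The groups overlapped (log2 fold change -0.035, SE 0.070, 95% interval -0.18 to 0.11). CYP4X1 and CYP4Z1 had at most 3 counts in a library, and the CYP3A7 readthrough gene at most 1.

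POR passes electrons from NADPH to the P450 enzymes of the endoplasmic reticulum. It stood at 199, 196 and 181 CPM in the NC libraries and 185, 191 and 182 CPM in the ORF-Flag libraries. NC 1 and NC 2 were highest and NC 3 lowest, so the groups overlapped. Its log2 fold change was -0.044 (SE 0.038, 95% interval -0.12 to 0.034, edgeR's adjusted p = 0.593), and its level per length was 30.9 FPKM. Of the 9 listed redox partners, all were tested, 1 passed on the lower side (11.1%, against 4.45% of all tested genes in either direction) and 0 on the higher side. FDXR, which passes electrons to the mitochondrial members such as CYP27A1, CYP24A1 and CYP27B1, stood at 174, 168 and 167 CPM in the NC libraries and 154, 157 and 140.3 CPM in the ORF-Flag libraries. All ORF-Flag values lay below all NC values (log2 fold change -0.18, SE 0.040, edgeR's adjusted p = 0.0112), and it was the most abundant of the list per length. Without ORF-Flag 3 the call was lost (adjusted p 0.144, in a range of 0.000271 to 0.144). FDX1, its partner, had a log2 fold change of -0.022 (SE 0.062). CYB5B, an outer mitochondrial cytochrome b5, had one of 0.11 (SE 0.033) with non-overlapping groups and edgeR's adjusted p of 0.0633.

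Every P450 enzyme needs heme. Of 12 listed genes of heme synthesis and breakdown, all were tested and 0 passed with edgeR, DESeq2, limma-trend or limma-voom, while 3 (25%) had an unadjusted p below 0.05 with edgeR, against 4.45% and 18.5% of all tested genes. In 11 of the 12 the log2 fold change was below 0, also without TMM and with DESeq2's size factors, against 50.5% of all tested genes, and the list's median was -0.039, beside -0.0012 for all tested genes. CPOX, coproporphyrinogen oxidase, was at 35.7, 33.6 and 35.4 CPM in NC and 32.96, 28.5 and 30.2 CPM in ORF-Flag (log2 fold change -0.19, edgeR's adjusted p = 0.0814). HMOX1, the inducible heme oxygenase, was at 58.7, 56.9 and 54.7 CPM in NC and 51.96, 53.9 and 48.6 CPM in ORF-Flag (log2 fold change -0.14, edgeR's adjusted p = 0.107). ALAD, which joins 2 molecules of aminolevulinic acid, was at 23.9, 24.02 and 25.2 CPM in NC and 22.5, 21.9 and 21.4 CPM in ORF-Flag (log2 fold change -0.15, edgeR's adjusted p = 0.185). The groups did not overlap for these 3 nor for PPOX, UROS and HMOX2, 50% of the list against 22.4% of all tested genes. ALAS1, the rate-limiting enzyme of heme synthesis in liver, had a log2 fold change of 0.035 (SE 0.044), and UROD, the most abundant of the list per length, was at 153, 155 and 156 CPM in NC and 154, 145 and 152 CPM in ORF-Flag.

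The downstream steps of drug metabolism were read from lists as well. Of the genes listed for conjugation, 25 of 29 were tested, 1 passed on the lower side and 0 on the higher side. The 1 was EPHX2, a hydrolase that was put in this list although it does not conjugate. An unadjusted p below 0.05 was reached by 9 genes of the list, 4 higher and 5 lower. That is 36.0% at the unadjusted and 4.0% at the adjusted threshold, against 18.5% and 4.45% of all tested genes. GSTO1, a glutathione transferase, was the most abundant per length, at 309, 302 and 307 CPM in NC and 308, 326 and 308 CPM in ORF-Flag. Among other phase I genes, 13 of 18 were tested and 0 passed with edgeR, DESeq2, limma-trend or limma-voom, while 3 (23.1%) had an unadjusted p below 0.05 with edgeR, against 4.45% and 18.5% of all tested genes. ALDH1A1, which oxidizes retinal, was the most abundant of them per length, at 1364, 1431 and 1468 CPM in NC and 1372, 1390.4 and 1376 CPM in ORF-Flag. Among drug transporters, 11 of 15 were tested and 1 passed, on the lower side (9.09%, against 4.45% in either direction). SLC47A1 (MATE1), which exports cationic drugs, stood at 84.7, 80.1 and 81.1 CPM in the NC libraries and 71.03, 67.8 and 75.5 CPM in the ORF-Flag libraries. All ORF-Flag values lay below all NC values (log2 fold change -0.19, SE 0.045, edgeR's adjusted p = 0.0132). The call was lost without ORF-Flag 1 (0.0679) or ORF-Flag 2 (0.0929), in a range of 0.000983 to 0.0929. ABCC2, an exporter of conjugates, was the most abundant transporter per length, at 1305, 1395 and 1359 CPM in NC and 1294, 1377 and 1339 CPM in ORF-Flag. The median log2 fold changes were -0.0017 for conjugation, -0.022 for other phase I and -0.018 for transporters.

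**Figure D5:**
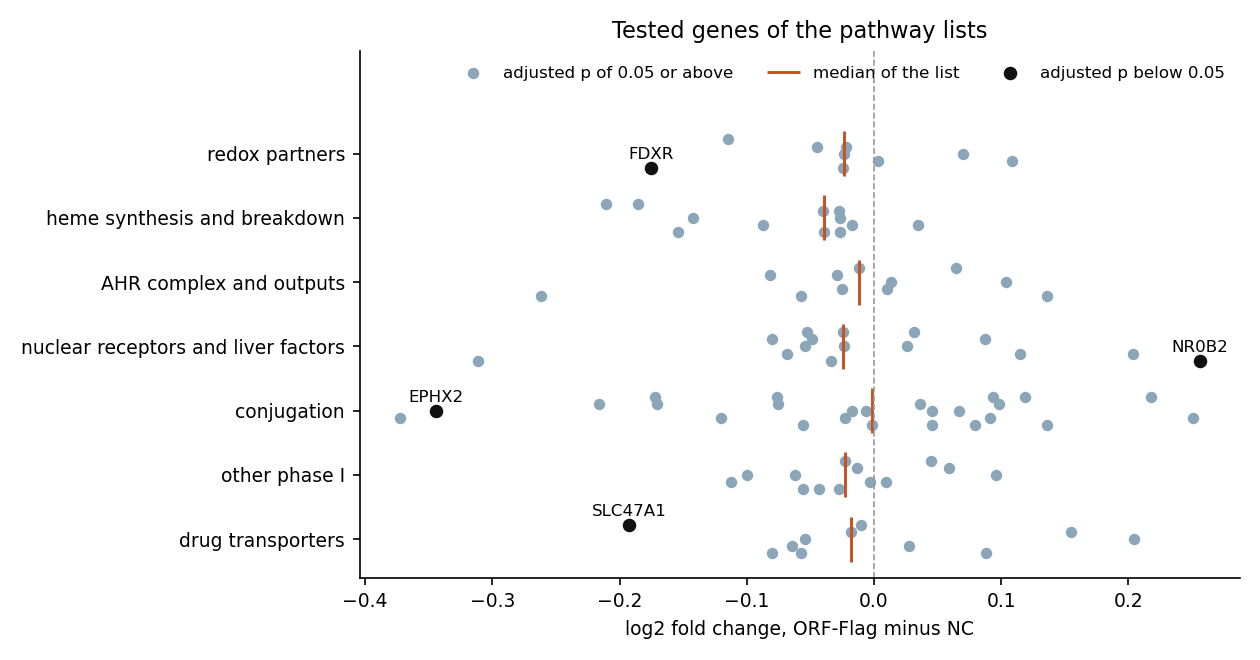
Log2 fold change (ORF-Flag minus NC, horizontal axis) of every tested gene in 7 pathway lists, with black and a name for an adjusted p below 0.05 and an orange line for the list's median. FDXR, EPHX2 and SLC47A1 lie on the lower side and NR0B2 on the higher side, and all medians lie between -0.039 and -0.0017.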

How the data were processed

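RNA of HepG2 cells was extracted with TRIzol and made into libraries with the VAHTS universal V10 kit. What the authors deposited are whole-number counts per Ensembl gene, not normalized. The submitters' processing notes name cutadapt 1.11, HISAT2 2.1.0, featureCounts 1.6.0, edgeR and build GRCh38, without roles; the annotation release and the strand setting are not given in the sources used here, so reads of antisense, overlapping and near-identical genes may have been shared. The methods of the study name limma. The counts were used as deposited. Symbols were matched for 20421 of 20422 identifiers, and exon lengths (GENCODE 29) for 20237. CPM used TMM factors, and FPKM divided CPM by the length of all exons of a gene in kilobases.

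Groups were compared with edgeR 4.0.16 in R 4.3.3 (filterByExpr, TMM, glmQLFit, glmQLFTest, Benjamini-Hochberg), tested on simulated data first. Alternatives were DESeq2 1.42.0, limma 3.58.1 (trend with prior count 2, and voom), no TMM, DESeq2 size factors, no filter, a filter of at least 10 counts in every library, the replicate number as a block, and each library left out. Standard errors came from the quasi-likelihood F statistic. Sharing was measured as the percentage of a gene's 31-base words that occur in transcripts of other genes. Motifs were searched in 250-base windows, and alignments used Biopython 1.88. The members, lists and alternatives were chosen with earlier results of these data known. Named were the receptors and POR, P450 genes with an adjusted p below 0.05, the 10 of highest level per length and drug, sterol and vitamin genes where detected, and of each list those with an adjusted p below 0.05 (at most 4) and the most abundant; other genes were added after their values were seen. The pseudogene CYP2D7 was left out of all counts of members, and the readthrough gene of CYP3A7 was kept.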

Additional observations from a re-analysis of the deposited data

How the results depend on the processing

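The number of genes at an adjusted p below 0.05 among all tested genes was 551. With 1 library left out, and so fewer samples, it was 459 without NC 1, 267 without NC 2, 1058 without NC 3, 300 without ORF-Flag 1, 278 without ORF-Flag 2 and 199 without ORF-Flag 3. The count of P450 genes, receptors and POR at that threshold was 2, and 1 with DESeq2, and 0 to 3 with 1 library left out (0 without NC 1, ORF-Flag 1 or ORF-Flag 2, and 1 without NC 2 or ORF-Flag 3). At an unadjusted p below 0.05 it was 5, and 3 with DESeq2, and 3 to 6 with 1 library left out. The number of P450 genes detected was 24, and 49 with at least 1 count in at least 1 library, which is a lower minimum by construction; it was 31 with at least 3 counts in at least 3 libraries, 22 with at least 10 counts in all 6 and 21 with at least 1 CPM in at least 3, and with 1 library left out it was 24 each time. Limma-trend, limma-voom, no TMM, DESeq2 size factors, no filter and the filter of at least 10 counts in every library kept the 3 counts of calls within 1.5 times. The causes of the other differences were not tested.

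Of the 28 tested members, 20 kept the sign of their log2 fold change wherever a value could be had, and 8 changed it in 18 of 390 values; CYP2C8 and CYP7A1 had no value under the filter of at least 10 counts in every library. With 1 library left out, the log2 fold changes of these 8 ran from -0.021 to 0.021 for CYP20A1, -0.19 to 0.20 for CYP2B6, -0.060 to 0.073 for CYP2J2, -0.19 to 0.28 for CYP3A43, -0.089 to 0.0040 for CYP4F11, -0.018 to 0.051 for CYP4F3, -0.10 to 0.027 for NR1I2 and -0.019 to 0.074 for NR1I3. Of the 20 that kept their sign, these moved by over 1.5 times with 1 library left out: AHR (from 0.023 to 0.27), CYP21A2 (from 0.21 to 0.81), CYP27B1 (from -0.13 to -0.041), CYP2C8 (from -0.81 to -0.24), CYP2E1 (from 0.17 to 0.40), CYP2S1 (from 0.0096 to 0.14), CYP2W1 (from -0.060 to -0.0054), CYP39A1 (from 0.10 to 0.22), CYP4F12 (from -0.26 to -0.020), CYP4F2 (from 0.054 to 0.22), CYP4V2 (from 0.022 to 0.16), CYP7A1 (from -0.69 to -0.14) and POR (from -0.087 to -0.017), besides CYP1A1, CYP27A1 and CYP2D6 (from 0.13 to 0.25, -0.15 to -0.066 and -0.49 to -0.21). The value was -0.00034 for CYP2J2 without TMM and -0.018 for CYP3A43 with limma-voom. The median of the 28 members was -0.0036 with limma-voom and ran from -0.018 to 0.029 with 1 library left out, below 0 without NC 1 and without ORF-Flag 3. The alternatives for this median were chosen after seeing the data. The causes were not tested. The share of the P450 level held by CYP27A1 and CYP1A1 was 58.9%, and 56.8% with the longest transcript as length, an alternative also added after seeing the data.

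With the replicate number as a block, 731 genes and 3 members had an adjusted p below 0.05, CYP27A1 among them (adjusted p 0.0388, in a range of 0.0313 to 0.351 over its alternatives), and 5 members an unadjusted p below 0.05. The deviations of replicates with the same number correlated at 0.067, 0.027 and 0.045, all positive but under 0.1, so the numbers were not taken to pair the samples. ORF-Flag 1 and ORF-Flag 3 correlated best with the NC library of their own number, and ORF-Flag 2 with NC 3 (0.030).

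At this depth, members under about 1 CPM had intervals wider than 1 on the log2 scale, so smaller differences in CYP7A1, CYP2C8 or CYP21A2 were not detectable.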
